A study of Mus musculus with 24 samples.

Results

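Receptors by which tissue-resident macrophages take up spent proteins, lipids, dying cells and folate were followed in mouse macrophages labelled as knockout (KO) of Tet2 or as wild type (WT). Tet2 converts 5-methylcytosine of DNA to its hydroxymethyl form. The genes were Folr2, Cd163, Stab1, Msr1, Marco, Lyve1, Timd4 and Vsig4, and Sepp1, which encodes a secreted protein and was listed with them. All 9 were found among the 23309 gene models of each expression table. They were picked by symbol, from a list chosen with earlier results of these data known.

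Resident macrophages clear their surroundings through scavenger receptors, a structurally mixed group defined by the modified proteins, lipids and particles that they bind and bring into the cell. Folr2 is the high-affinity folate receptor beta, Cd163 takes up haemoglobin bound to haptoglobin, and Stab1 (stabilin-1) internalises modified lipoproteins and the matrix protein SPARC. Msr1 and Marco are class A scavenger receptors for modified lipoproteins and bacteria, Lyve1 binds hyaluronan, Timd4 binds phosphatidylserine on dying cells, and Vsig4 binds fragments of complement C3. Sepp1, now named Selenop, encodes selenoprotein P, which carries selenium between cells. Folr2, Lyve1, Cd163 and Timd4 are used as markers of long-lived resident macrophages in many tissues.

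Bone marrow-derived macrophages (BMDM) are grown in culture from marrow cells with the growth factor M-CSF. Tet2 knockout and wild-type C57BL/6 marrow was cultured for 7 days in medium containing L929-conditioned medium and M-CSF, and the cells were then harvested untreated (0 h) or after 10 or 24 h with 20 ng/ml interleukin 4 (IL4), a cytokine of type 2 immunity that drives alternative activation. Each of these 6 groups held 2 libraries, called biological replicates in the design text, made after depletion of ribosomal RNA. Tumour-associated macrophages (TAM) were sorted as CD11b+F4/80+ cells from YUMM1.7 melanomas 4 weeks after subcutaneous injection into male C57BL/6J mice aged 6 to 8 weeks. The 4 labelled KO TAM libraries came from mice that were LysMcre +/wt, Tet2 fl/fl, and the 4 WT TAM libraries from mice that were LysMcre wt/wt, Tet2 fl/fl. The WT animals of the TAM experiment thus carried the floxed allele too but no Cre, and LysM-Cre acts in myeloid cells, neutrophils included, so the design does not restrict the deletion to macrophages. The labels do not say how the BMDM knockout was made, and for TAM nothing states that each library was 1 animal, so the p-values measure the spread between these libraries. A further 4 libraries of 5-hydroxymethylcytosine were not analysed here.

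Levels are FPKM, sequenced fragments normalised for transcript length and library size, so they can be set side by side between genes, and read totals are unknown. The FPKM of all genes summed to 365118 to 557183 (BMDM) and 337994 to 464812 (TAM). Tet2 itself did not separate the genotypes: at 0, 10 and 24 h the log2 differences of labelled KO minus WT were −0.18 ± 0.13, −0.17 ± 0.13 and 0.16 ± 0.13 (SE; limma, adjusted p = 0.576, 0.837 and 0.506), and in TAM 0.36 ± 0.22 (0.418). FPKM of the gene as a whole do not show whether single exons are missing, so the groups are called labelled KO. Among TAM, WT library 8 stood apart: 12.6% of the tested genes lay over 2-fold from the rest of its group, against 1.93% to 8.76% in the other 7 libraries and 0.362% to 0.799% in BMDM. Labelled KO library 5 had the highest low end of values, with a 5th percentile of 0.197 FPKM among values above 0 against 0.0296 to 0.0417 FPKM in the other TAM libraries. The macrophage markers Csf1r and Emr1 (F4/80) were high in both systems, at 300.1 to 327 and 142 to 219 FPKM in labelled KO TAM and 295 to 462 and 115 to 193 FPKM in WT TAM.

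The promoters are shown because Tet2 acts on cytosines in CpG dinucleotides and because several of the genes moved together. Each window runs from 250 bases before to 50 after a transcription start in RefSeq (build GRCm38.p6), 300 bases in all, whereas the expression tables were made on mm9. All 9 genes were matched in RefSeq and 7 of them had a window. Lyve1 and Msr1 had none, so their promoters were not searched. In the first 3 sequences, written 5′ to 3′ on the gene's own strand, capitals mark each CpG.
Cd163, chr6:124304401-124304700, plus strand: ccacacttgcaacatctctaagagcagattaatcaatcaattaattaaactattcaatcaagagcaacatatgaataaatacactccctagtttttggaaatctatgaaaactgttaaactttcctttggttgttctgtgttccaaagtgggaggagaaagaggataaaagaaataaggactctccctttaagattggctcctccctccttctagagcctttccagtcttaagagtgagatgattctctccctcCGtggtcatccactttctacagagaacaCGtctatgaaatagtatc
Folr2, chr7:101857141-101857440, minus strand: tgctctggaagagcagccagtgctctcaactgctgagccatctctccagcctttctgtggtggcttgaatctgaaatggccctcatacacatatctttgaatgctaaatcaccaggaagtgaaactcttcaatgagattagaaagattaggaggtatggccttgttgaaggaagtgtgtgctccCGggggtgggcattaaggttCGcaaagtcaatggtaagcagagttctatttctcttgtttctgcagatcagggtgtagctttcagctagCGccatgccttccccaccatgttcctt
Stab1, chr14:31168592-31168891, minus strand: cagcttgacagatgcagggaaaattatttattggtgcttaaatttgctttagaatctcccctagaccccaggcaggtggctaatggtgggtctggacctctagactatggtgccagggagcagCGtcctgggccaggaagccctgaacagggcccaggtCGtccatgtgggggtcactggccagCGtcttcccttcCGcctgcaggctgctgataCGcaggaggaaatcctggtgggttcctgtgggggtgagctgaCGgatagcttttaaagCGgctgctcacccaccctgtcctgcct
Cd163 held 2 CpG in this window and Folr2 3, with 5 in a second Folr2 window, and Stab1 held 7, the median of all 32851 windows. As few CpG as in the Cd163 window, or fewer, were found in 23.3% of all windows, and for the first Folr2 window in 31.4%. The 3 windows of Sepp1 held 4, 4 and 8, and that of Marco held none, as did 5.43% of windows.

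IL4 acts through the transcription factor STAT6, whose usual binding motif is TTCNNNNGAA, a pattern that reads the same on both strands. It was found in 1 window of these genes, the most upstream of the 3 Sepp1 windows, at position 35 counted from the window's 5′ end (capitals below), and in 6.95% of all windows.
Sepp1, chr15:3270517-3270816, plus strand: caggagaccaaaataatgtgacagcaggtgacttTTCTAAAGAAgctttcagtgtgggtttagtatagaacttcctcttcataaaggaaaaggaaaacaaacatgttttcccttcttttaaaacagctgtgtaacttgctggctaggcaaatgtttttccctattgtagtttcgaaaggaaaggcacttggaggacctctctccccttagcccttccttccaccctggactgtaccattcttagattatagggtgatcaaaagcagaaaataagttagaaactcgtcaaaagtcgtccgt
The shorter TTCNNNGAA was found in no window of the genes searched and in 8.3% of all windows. The half-site TGCTGA bound by MAF, searched on both strands, occurred in both Folr2 windows (positions 31 and 232), in Stab1 (208), in Timd4 (101 and 207) and in Vsig4 (274), against 19.5% of all windows. The core GAGGAA bound by PU.1, also on both strands, occurred in Stab1 (221), Marco (105), Vsig4 (96 and 198) and 1 site of Sepp1 that lies in both of its overlapping upstream windows (72 and 28), against 28.3% of all windows. No match overlapped one of another motif, and a match shows only that the letters are present. Searched were 2 windows of Folr2, 3 of Sepp1 and 1 of each other gene that had a window. Enrichment over all windows was not tested.

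Of the 9 genes, 5 were expressed well enough in BMDM to be tested (1 FPKM in at least 2 libraries). Sepp1 was by far the most abundant, at 4402 ± 279 FPKM in untreated labelled KO and 4455 ± 651 FPKM in untreated WT BMDM (mean ± SD, n = 2 each), 1.1% of the summed FPKM in each of the WT libraries. Stab1 followed at 232 ± 12.5 and 232 ± 33.4 FPKM, then Folr2 at 36.0 ± 3.69 and 55.3 ± 6.88 FPKM, Msr1 at 42.5 ± 2.42 and 38.0 ± 6.37 FPKM, and Cd163 at 3.09 ± 0.134 and 5.04 ± 0.0259 FPKM. The other 4 genes stayed below 1 FPKM in every BMDM library: Marco reached at most 0.901, Vsig4 0.231, Timd4 0.0525 and Lyve1 0.0315 FPKM, and Lyve1 was listed at 0 in 10 of 12 libraries. Marco had 0.713 and 0.413, 0.286 and 0.399, and 0.0941 and 0.113 FPKM at 0, 10 and 24 h in labelled KO BMDM, against 0.661 and 0.901, 0.299 and 0.436, and 0.244 and 0.206 FPKM in WT BMDM. Both libraries lay lower at 24 h than at 0 h in each genotype. Marco did not reach the filter, and in the alternative fit with no filter it changed by −0.50 at 24 h in labelled KO and −0.54 in WT BMDM (limma, adjusted p = 0.00876 and 0.00595). Vsig4 had 0.188 to 0.231 FPKM in the 4 untreated libraries and was listed at 0 in 4 libraries with IL4. With no filter it changed by −0.27 at 24 h in labelled KO and −0.24 in WT BMDM (limma, adjusted p = 0.0160 and 0.0250), and no difference between genotypes of Marco, Vsig4, Timd4 or Lyve1 passed in that fit. At 24 h, 4932 of 19297 genes passed in that fit in labelled KO and 5335 in WT BMDM. The Marco and Vsig4 calls rest on values under 1 FPKM, which are imprecise.

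**Figure D1:**
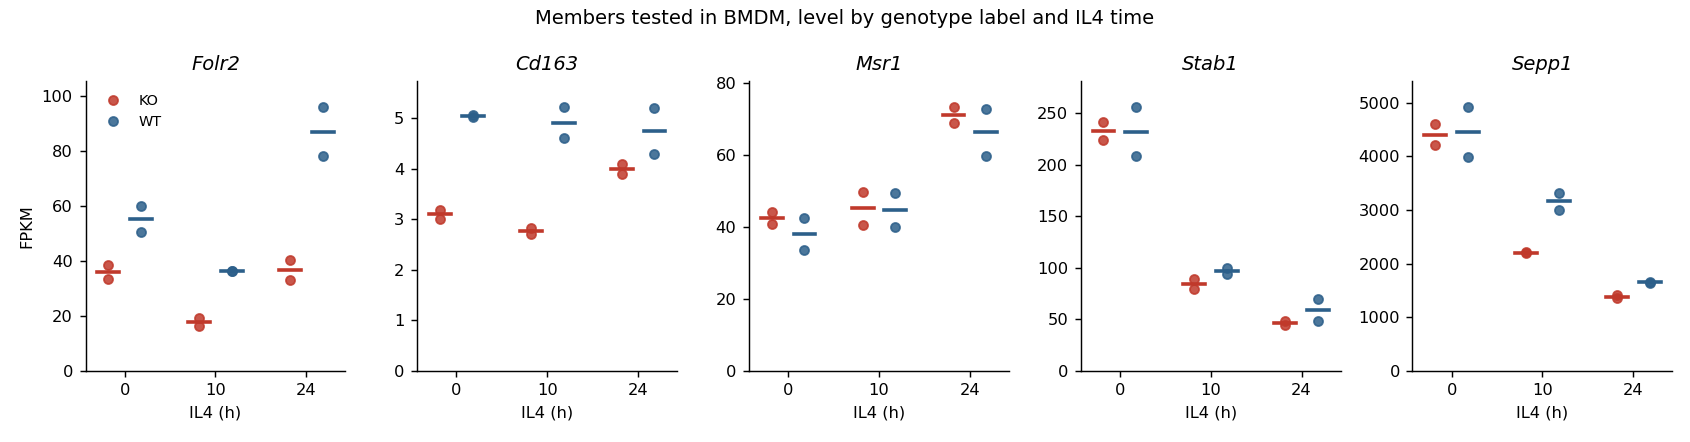
FPKM of the 5 tested genes (1 panel each, linear axis from 0) by hours of IL4, labelled KO in red to the left of WT in blue, 1 point per library and a bar at the mean of 2. Stab1 and Sepp1 step down with time in both genotypes, Msr1 is highest at 24 h, and Folr2 dips at 10 h, with its highest level, 78.1 and 96.0 FPKM, in WT BMDM at 24 h.

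With IL4, the genes took different courses. Stab1 and Sepp1 fell step by step in both genotypes, to 19.8% and 31.5% of the untreated mean at 24 h in labelled KO and to 25.4% and 37.0% in WT BMDM. Msr1 rose by 24 h in both. Folr2 fell at 10 h in both genotypes, and at 24 h it lay above its untreated level in WT but not in labelled KO BMDM. Cd163 did not pass the test for any change in WT BMDM.

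Stab1 had 224 and 241, 89.4 and 79.4, and 48.1 and 44.0 FPKM at 0, 10 and 24 h in labelled KO BMDM. In WT BMDM it had 256 and 208, 93.8 and 99.9, and 48.2 and 69.5 FPKM. The libraries of the 3 times did not overlap within either genotype. Between 10 and 24 h that also held for 69.9% of all tested genes in labelled KO and 63.3% in WT BMDM. On the log2(FPKM + 1) scale, which understates changes of low genes, Stab1 changed by −1.45 ± 0.17 at 10 h and −2.31 ± 0.17 at 24 h against 0 h in labelled KO BMDM (SE; limma, adjusted p = 7.4e-05 and 1.9e-06), and by −1.25 ± 0.17 and −1.98 ± 0.17 in WT BMDM (2.0e-04 and 5.9e-06). The further fall between 10 and 24 h passed too, at −0.86 in labelled KO and −0.73 in WT BMDM (limma, adjusted p = 0.00404 and 0.00948), the second of which was lost without replicate 2 of WT at 10 h (0.0719) and when fitted on the 4 libraries compared (0.0768).

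Sepp1 had 4206 and 4599, 2195 and 2208, and 1363 and 1408 FPKM at the 3 times in labelled KO BMDM. In WT BMDM it had 4916 and 3995, 2996 and 3326, and 1645 and 1652 FPKM. All 4 libraries with IL4 lay below both untreated libraries in each genotype. At 24 h the change was −1.67 ± 0.15 in labelled KO and −1.43 ± 0.15 in WT BMDM (limma, adjusted p = 9.2e-06 and 2.6e-05). At 10 h it was −1.0 ± 0.15 in labelled KO (limma, adjusted p = 4.1e-04) and −0.49 ± 0.15 in WT BMDM (0.0219). The WT change at 10 h was the less steady call: it missed the threshold without replicate 1 of WT at 0 h (limma, adjusted p = 0.0595) or without replicate 1 (0.156) or 2 (0.0609) of WT at 10 h, and likewise with no filter (0.162) or fitted on the 4 libraries compared (0.192). After quantile normalization it was −0.23 (limma, adjusted p = 0.0630), with the median of all tested genes at −0.02, against 0.09 as deposited, and 5 of 11 alternatives were under 0.05.

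Folr2, the folate receptor, had 38.6 and 33.4, 16.5 and 19.2, and 33.0 and 40.3 FPKM at 0, 10 and 24 h in labelled KO BMDM. In WT BMDM it had 60.2 and 50.4, 36.4 and 36.4, and 78.1 and 96.0 FPKM. The 10 h libraries were the lowest of each genotype, and both 24 h libraries exceeded both untreated ones in WT but not in labelled KO BMDM. At 10 h Folr2 changed by −0.97 ± 0.15 in labelled KO and −0.58 ± 0.15 in WT BMDM (limma, adjusted p = 4.6e-04 and 0.00889). At 24 h it was 0.02 ± 0.15 from its untreated level in labelled KO BMDM (95% interval −0.30 to 0.35; limma, adjusted p = 0.917) and 0.64 ± 0.15 above it in WT BMDM (0.00438). From 10 to 24 h it rose in both, by 1.0 ± 0.15 and 1.23 ± 0.15 (limma, adjusted p = 8.4e-04 in labelled KO and 2.8e-04 in WT BMDM).

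Msr1, the class A receptor, had 44.2 and 40.8, 40.6 and 49.8, and 68.9 and 73.3 FPKM at the 3 times in labelled KO BMDM. In WT BMDM it had 42.5 and 33.5, 49.6 and 40.1, and 72.9 and 59.8 FPKM. The 24 h libraries were the highest in both genotypes, and those at 0 and 10 h overlapped. Its rise at 24 h was 0.73 ± 0.16 in labelled KO and 0.79 ± 0.16 in WT BMDM (limma, adjusted p = 0.00368 and 0.00211), while at 10 h the differences were 0.08 and 0.24 (0.728 and 0.255).

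Cd163, the haemoglobin receptor, had 3.0 and 3.19, 2.71 and 2.83, and 4.09 and 3.89 FPKM at 0, 10 and 24 h in labelled KO BMDM. In WT BMDM it had 5.02 and 5.05, 4.60 and 5.21, and 4.29 and 5.20 FPKM. The WT libraries overlapped at all 3 times, whereas both labelled KO libraries at 24 h lay above the other 4. In labelled KO BMDM the rise was 0.29 ± 0.10 at 24 h against 0 h (limma, adjusted p = 0.0389) and 0.40 ± 0.10 against 10 h (0.0142). Leaving out any 1 of the 4 libraries ended either call (limma, adjusted p = 0.0969 to 0.18 and 0.0550 to 0.0954). In WT BMDM the change at 24 h was −0.08 ± 0.10 (95% interval −0.30 to 0.14; limma, adjusted p = 0.552).

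Ordered over the 6 BMDM groups, Folr2 was highest in WT at 24 h and next in untreated WT, then came labelled KO at 24 h, WT at 10 h and untreated labelled KO, whose libraries overlapped, and labelled KO at 10 h was lowest. Cd163 was highest in the 3 WT groups, which overlapped, followed by labelled KO at 24 h, untreated and at 10 h. For both Stab1 and Sepp1 the untreated groups of the genotypes overlapped at the top, followed without overlap by WT at 10 h, labelled KO at 10 h, WT at 24 h and labelled KO at 24 h. At 24 h the nearest Stab1 libraries of the genotypes were all but level, at 48.15 FPKM in WT and 48.14 FPKM in labelled KO. Genotypes did not overlap for 51.6% and 50.5% of all tested genes at 10 and 24 h, and neither Stab1 nor Sepp1 passed there. For Msr1 both 24 h groups overlapped above the other 4, which overlapped too.

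**Figure D2:**
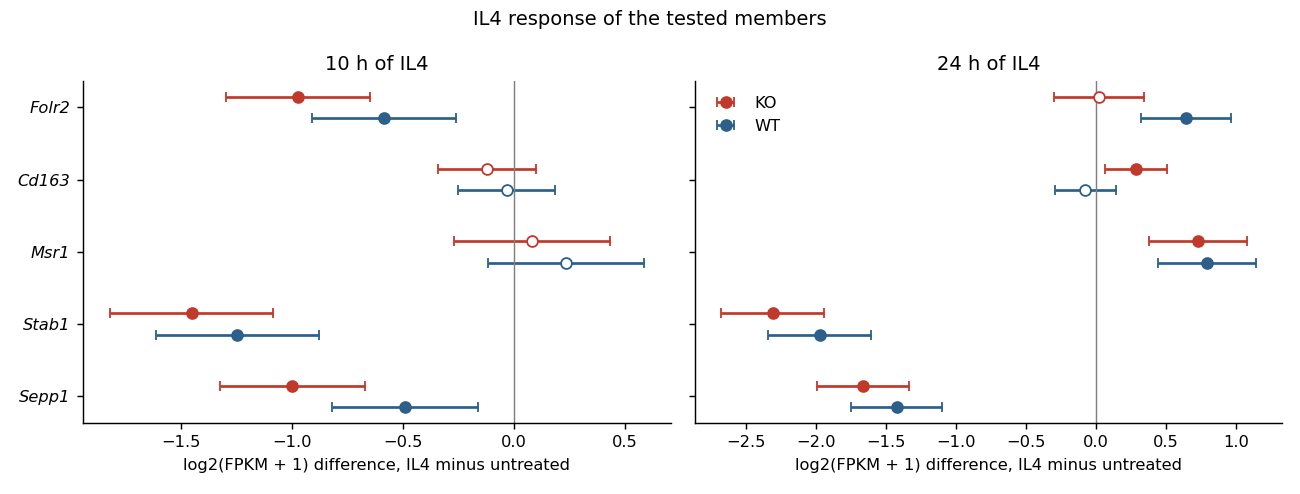
Change with IL4 as a difference of log2(FPKM + 1), IL4 minus untreated, for the 5 tested genes at 10 h (left) and 24 h (right), labelled KO in red above WT in blue, with 95% intervals from limma and filled points where the adjusted p is under 0.05. Stab1 and Sepp1 lie left of 0 throughout, from −0.49 for Sepp1 in WT at 10 h to −2.31 for Stab1 in labelled KO at 24 h, and Folr2 at 24 h lies at 0.02 in labelled KO and 0.64 in WT.

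The counts read against a wide response. In labelled KO BMDM 3 of the 5 genes passed at 10 h and 4 at 24 h, where 38.8% and 43.7% of the 10510 tested genes passed. In WT BMDM 3 passed at 10 h and 4 at 24 h, where 42.4% and 50.0% of all genes passed. Between 10 and 24 h 5 passed in labelled KO and 4 in WT BMDM, against 23.0% and 25.9% of all genes. Without replicate 1 of labelled KO at 10 h 2 passed, without any other library of that comparison 3, and without replicate 2 of WT at 10 h 2 passed in WT. Groups that do not overlap were common as well, at 77.7% and 79.4% of all genes in labelled KO and 72.2% and 66.1% in WT BMDM at 10 and 24 h. The comparisons at 10 and 24 h share their untreated libraries.

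Other genes of the same functions moved in both directions with IL4. Among all tested genes 26.5% rose and 17.1% fell at 24 h in labelled KO BMDM, and 29.7% rose and 20.3% fell in WT BMDM, though quantile normalization brought the share that rose among the called genes to 48.3% and 47.6%, against 60.8% and 59.4% as deposited. Of 12 other scavenger receptors tested, 2 rose and 8 fell at 24 h in labelled KO BMDM, with a median change of −0.60 against 0.07 over all tested genes, and 2 rose and 6 fell in WT BMDM (−0.32 against 0.06). The lipid receptor Cd36 rose by 1.53 ± 0.15 and 1.57 ± 0.15 (labelled KO and WT; limma, adjusted p = 1.7e-05 and 1.4e-05), and the endotoxin co-receptor Cd14 fell by 1.93 ± 0.12 and 1.15 ± 0.12 (8.1e-07 and 3.4e-05). Of 15 genes of folate uptake and one-carbon metabolism, 8 rose and 2 fell in labelled KO and 7 rose and 3 fell in WT BMDM at 24 h. Mthfd2, the mitochondrial methylenetetrahydrofolate dehydrogenase, rose by 1.70 ± 0.09 and 1.80 ± 0.09 (limma, adjusted p = 2.2e-07 and 1.4e-07). Of 21 tested genes of selenoproteins and their synthesis, 5 rose and 4 fell in labelled KO (5 and 7 after quantile normalization) and 5 rose and 6 fell in WT BMDM. Sephs2, which makes the selenium donor, fell by 1.27 ± 0.13 and 1.00 ± 0.13 (limma, adjusted p = 2.1e-05 and 1.1e-04), and the peroxidase Gpx1 rose by 1.11 ± 0.16 and 1.44 ± 0.16 (3.4e-04 and 5.3e-05). Of 27 other genes used as markers of resident macrophages, 6 rose and 11 fell in labelled KO, and 10 rose and 12 fell in WT BMDM. The iron exporter Slc40a1 fell by 4.22 ± 0.10 and 4.32 ± 0.10 (limma, adjusted p = 5.5e-10 and 5.3e-10), the transcription factor Maf fell by 2.06 ± 0.12 and 2.54 ± 0.12 (4.0e-07 and 8.5e-08), and the chemokine Ccl24 rose by 6.59 ± 0.15 and 5.94 ± 0.15 (5.5e-10 and 8.2e-10).

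Between genotypes in BMDM, Folr2 and Cd163 were lower in labelled KO cells and the other 3 tested genes did not pass. Averaged over the 3 times, labelled KO minus WT was −0.94 ± 0.08 for Folr2 and −0.47 ± 0.06 for Cd163 (SE; limma, adjusted p = 5.9e-05 and 5.4e-04), and both calls held in all 18 alternative settings. These are 2 of the 5 tested genes, where 9.94% of all tested genes passed and 2.88% passed as lower. The mean level of Folr2 in labelled KO BMDM was 65.1%, 49.0% and 42.1% of that in WT BMDM at 0, 10 and 24 h, and that of Cd163 61.4%, 56.4% and 84.1%.

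At single times, both labelled KO libraries lay below both WT libraries for Folr2 and for Cd163 at 0, 10 and 24 h, a separation also seen for 42.5%, 51.6% and 50.5% of all tested genes. Folr2 differed by −0.60 ± 0.15 in untreated cells, which did not pass (limma, adjusted p = 0.0615), by −0.99 ± 0.15 at 10 h (0.00453) and by −1.22 ± 0.15 at 24 h (0.00173). In untreated cells it passed after median-of-ratios scaling (−0.66, limma, adjusted p = 0.00924) and after quantile normalization (−0.77, 0.00249), with 0.00249 to 0.389 over 11 alternatives. Cd163 differed by −0.56 ± 0.10 in untreated cells and −0.65 ± 0.10 at 10 h (limma, adjusted p = 0.0137 and 0.00578), and by −0.20 ± 0.10 at 24 h (95% interval −0.42 to 0.02, 0.242). So 1, 2 and 1 of the 5 genes passed at 0, 10 and 24 h, where 2.70%, 2.84% and 7.43% of all tested genes passed.

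The calls at single times rested on few libraries. The number of all genes that passed moved too: it was 284, 299 and 781 at 0, 10 and 24 h, and leaving out 1 library of the comparison gave 90 to 1383, 93 to 125 and 146 to 1251. Without replicate 1 or 2 of labelled KO or replicate 2 of WT at 0 h, the untreated difference of Cd163 missed the threshold (limma, adjusted p = 0.147, 0.0805 and 0.0775, and 0.00337 to 0.147 over 11 alternatives). Without replicate 1 of labelled KO or replicate 2 of WT at 10 h, both genes missed it at 10 h, with limma adjusted p of 0.0685 and 0.0872 for Cd163 and 0.0662 and 0.0533 for Folr2. Over 11 alternatives these ran from 0.00239 to 0.0872 for Cd163 and from 0.000533 to 0.0662 for Folr2, with 9 under 0.05 for each. Fitted on the 4 libraries compared, Folr2 at 24 h differed by the same −1.22 with an adjusted p of 0.0873 (limma), the highest of its 11 alternatives, of which 10 were under 0.05.

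Stab1, Msr1 and Sepp1 did not differ past the threshold between genotypes at any time. Sepp1 came nearest at 10 h, at 2195 and 2208 FPKM in labelled KO against 2996 and 3326 FPKM in WT BMDM, a difference of −0.52 ± 0.15 (limma, adjusted p = 0.127). It passed there under 3 of 11 alternatives, with an adjusted p of 0.0322 after median-of-ratios scaling, 0.00321 after quantile normalization and 0.0279 when fitted on the 4 libraries alone (limma, 0.00321 to 0.784 over all 11). For Stab1 the difference was 0.01, −0.20 and −0.32 at 0, 10 and 24 h, with 95% intervals of −0.36 to 0.38, −0.57 to 0.17 and −0.69 to 0.04. Without replicate 1 of WT at 24 h the Stab1 difference was −0.58 and passed (limma, adjusted p = 0.0360), the 1 alternative of 11 in which it did (up to 0.814). For Msr1 it was 0.17, 0.01 and 0.11, with intervals of −0.18 to 0.52, −0.34 to 0.36 and −0.25 to 0.46.

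**Figure D3:**
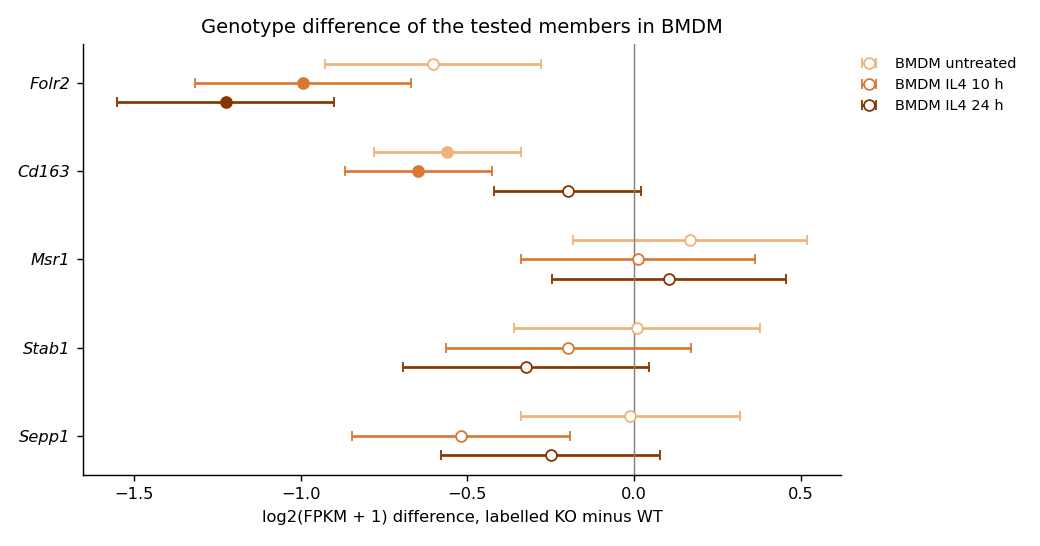
Difference between genotypes in log2(FPKM + 1), labelled KO minus WT, for the 5 tested genes in BMDM untreated, at 10 h and at 24 h of IL4 (top to bottom, light to dark), with 95% intervals from limma and filled points where the adjusted p is under 0.05. Folr2 lies between −0.60 and −1.22 and Cd163 between −0.20 and −0.65, and the intervals of Msr1 and Stab1 cross 0 at each time.

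The difference of the IL4 responses between genotypes was tested as an interaction, and none of the 5 genes passed at 10 or 24 h, where 0.0951% and 0.295% of all tested genes passed. None of the 5 passed with any 1 library left out either, although the number of all genes that passed at 24 h, 31 with all libraries, was 1169 without replicate 1 of WT at 0 h, 142 without replicate 1 of WT at 24 h and 11 to 37 without each other library of the comparison. At 24 h it was −0.62 ± 0.21 for Folr2 (unadjusted p = 0.0127, limma, adjusted p = 0.176) and 0.36 ± 0.14 for Cd163 (0.0271, adjusted 0.219), and at 10 h −0.51 ± 0.21 for Sepp1 (0.0344, adjusted 0.994). So the data do not show that the IL4 response of any of the 5 genes differed between genotypes.

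Markers of another cell type moved with genotype in the cultures. All 10 fibroblast markers were found, and their summed level was 41.6 and 34.7, 31.4 and 31.2, and 14.6 and 15.2 FPKM at 0, 10 and 24 h in labelled KO BMDM, against 7.34 and 7.42, 7.50 and 6.33, and 3.50 and 3.42 FPKM in WT BMDM. The 5 of them that were tested were higher in labelled KO at each time. The summed level of the 10 macrophage markers was 16409 and 15579, 8862 and 8211, and 7520 and 7583 FPKM in labelled KO, against 19969 and 15616, 10398 and 10488, and 9945 and 11645 FPKM in WT BMDM, mostly Lyz2. Averaged over times, Fcgr1, Itgam and Cd14 among them differed by −0.56, −0.40 and −0.37 (limma, adjusted p = 0.0016, 0.0017 and 0.0090). Each was also lower in labelled KO at 10 and 24 h, but none passed in untreated cells. The other macrophage markers, Lyz2 included, did not pass averaged over times. The 7 monocyte markers summed to 247 and 257, 111 and 113, and 345 and 364 FPKM in labelled KO, against 418 and 329, 217 and 216, and 480 and 454 FPKM in WT BMDM. Of the 3 tested, only F13a1, which is also among the resident macrophage genes, was lower in labelled KO at each time. Ccr2 differed by 0.34, 0.02 and 0.43 at 0, 10 and 24 h, and neither it nor Chi3l3 passed at any time. Chi3l3 rose with 24 h of IL4 by 6.22 in labelled KO and 5.94 in WT BMDM. The 12 endothelial markers summed to 5.14 to 8.36 FPKM in labelled KO and 3.13 to 4.55 FPKM in WT BMDM, and 3 of the 4 tested were higher in labelled KO averaged over times. Neutrophil markers summed to 55.6 to 123 FPKM in labelled KO and 76.2 to 137 FPKM in WT BMDM, and 2 of the 5 tested were lower in labelled KO at 24 h. Whether any of these has a part in the lower Folr2 and Cd163 was not tested. In RNA from a whole culture or sort, fewer cells of a type and less RNA per cell cannot be told apart.

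Averaged over times, 5 of 15 folate and one-carbon genes were higher in labelled KO BMDM and 0 lower, where 7.06% of all tested genes were higher and 2.88% lower, with a median of 0.15 against 0.03 over all tested genes. Of 12 other scavenger receptors 3 were higher and 1 lower (median 0.10), of 21 selenoprotein genes 2 and 0 (0.06), and of 27 other resident macrophage genes 7 and 6. After median-of-ratios scaling or quantile normalization the scavenger receptors had 2 higher and 2 lower, the resident macrophage genes 7 and 7, the folate genes 4 and 0, and the selenoprotein genes 1 higher and 2 or 3 lower. Among all called genes 71.0% were higher as deposited, and 54.8% and 54.2% under these scalings. Cd5l, a secreted scavenger protein of tissue macrophages, was higher by 2.82 ± 0.17 untreated, 2.71 ± 0.17 at 10 h and 2.05 ± 0.17 at 24 h (limma, adjusted p = 1.3e-05, 1.7e-05 and 2.2e-04). Axl, a receptor for dying cells, was higher by 1.1, 1.03 and 0.99 (limma, adjusted p = 0.00138, 0.0020 and 0.00304). F13a1, a clotting factor subunit, and the ficolin Fcna differed by −1.21 and −1.08 at 10 h (limma, adjusted p = 4.4e-04 and 0.00286) and by −1.29 and −1.14 at 24 h (3.5e-04 and 0.00251). Mthfd2 was higher by 0.41 ± 0.09 untreated and 0.62 ± 0.09 at 10 h (limma, adjusted p = 0.0426 and 0.00448).

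In TAM, Cd163, Folr2, Lyve1 and Sepp1 had lower values in all 4 labelled KO libraries than in any of the 4 WT libraries, a separation of the groups, in either direction, that 12.4% of all tested genes showed, but no gene of the 9 passed the test. WT library 8 held the highest value of 6 of the 9, and the spread that it adds to the WT group enters every test. Of the 9 genes, 6 were tested (1 FPKM in at least 4 libraries), and 0.101% of the 9897 tested genes, 10 in all, passed. Cd163 and Lyve1 passed that filter through their WT libraries, and reached 1 FPKM in 1 and 2 of the labelled KO libraries.

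Cd163 had 0.590, 0.828, 0.827 and 1.40 FPKM in labelled KO TAM, against 6.21, 7.15, 4.99 and, in library 8, 47.5 FPKM in WT TAM. Folr2 had 5.96, 7.22, 2.12 and 6.11 FPKM in labelled KO TAM, against 18.6, 15, 25.5 and, in library 8, 181 FPKM in WT TAM. Lyve1, the hyaluronan receptor, had 1.85, 1.71, 0.341 and 0.917 FPKM in labelled KO TAM, against 5.51, 6.26, 7.21 and, in library 8, 61.8 FPKM in WT TAM. For these 3 genes the groups do not overlap with or without library 8, which lay 7.65, 9.74 and 9.87 times above the median of the other 3 WT libraries.

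Sepp1 had 196, 213, 360 and 365 FPKM in labelled KO TAM, against 812, 446, 554 and, in library 8, 1329 FPKM in WT TAM. Stab1 had 9.24, 8.46, 43.5 and 33.1 FPKM in labelled KO TAM, against 55.9, 26.4, 42.3 and, in library 8, 257 FPKM in WT TAM. For both genes labelled KO libraries 3 and 4 were lower than 5 and 6, and the Stab1 groups overlap. Msr1 had 255, 205, 271 and 262 FPKM in labelled KO TAM, against 198, 261, 183 and, in library 8, 189 FPKM in WT TAM, and its groups overlap.

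The other 3 genes stayed under 1 FPKM in all libraries but library 8, where Vsig4 did not. Vsig4, the complement receptor, had 0.187, 0.138, 0.599 and 0 FPKM in labelled KO TAM, against 0.889, 0.204, 0.824 and, in library 8, 25.5 FPKM in WT TAM. Timd4 had 0.186 to 0.329 FPKM in labelled KO and 0.0982 to 0.437 FPKM in WT TAM. Marco was listed at 0 in 3 labelled KO libraries and 1 WT library, with 0.0346 FPKM in labelled KO library 3 and 0.571, 0.160 and 0.0335 FPKM in WT libraries 1, 7 and 8.

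**Figure D4:**
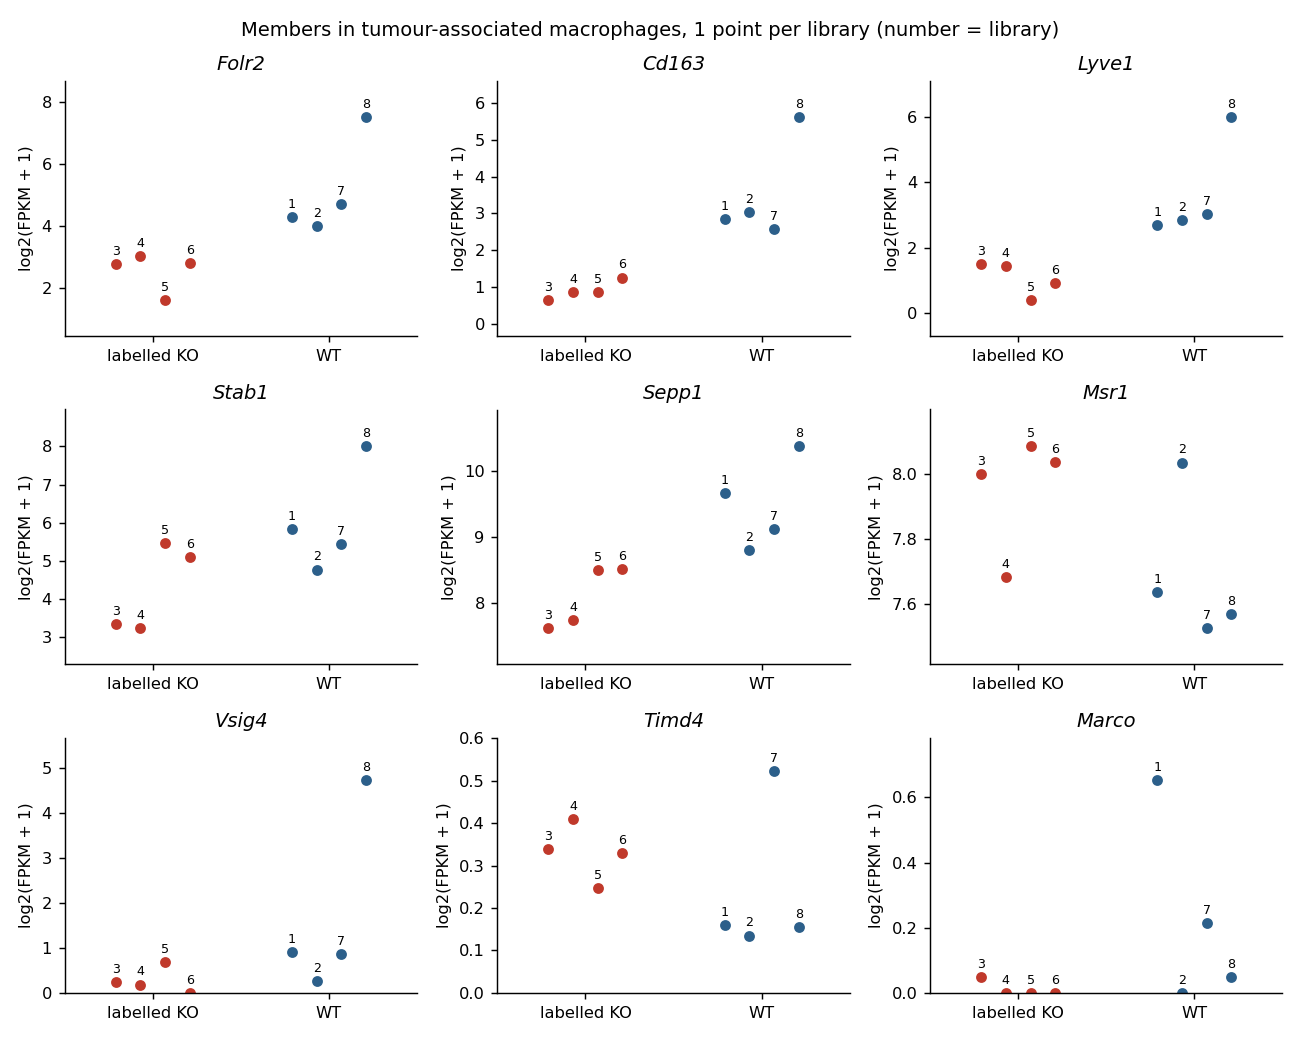
Level of all 9 genes in TAM as log2(FPKM + 1), 1 panel per gene with its own axis, labelled KO in red to the left of WT in blue, 1 numbered point per library. WT library 8 tops the panels of Folr2, Cd163, Lyve1, Stab1, Sepp1 and Vsig4 and sits among the others for Msr1, Timd4 and Marco.

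The log2 difference of labelled KO minus WT TAM was −2.60 ± 0.60 for Cd163, −2.56 ± 0.73 for Folr2, −2.57 ± 0.69 for Lyve1 and −1.40 ± 0.38 for Sepp1 (SE, n = 4 libraries each; limma, adjusted p = 0.135, 0.167, 0.153 and 0.151). Unadjusted p in limma were 0.00225, 0.00732, 0.00536 and 0.00519, values under 0.05 that 1676 of the 9897 tested genes reached. Stab1 differed by −1.72 ± 0.77 (limma, adjusted p = 0.301) and Msr1 by 0.26 ± 0.17 (95% interval −0.13 to 0.65, 0.450). The median over all tested genes was 0.09.

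Without WT library 8 the differences of all 6 genes were smaller in size, as were the errors of all but Msr1. Cd163 then differed by −1.90 ± 0.18 and passed (limma, adjusted p = 0.0363, where 0.226% of all genes passed), with adjusted p of 0.00485 to 0.327 over its 13 alternatives. Lyve1 was at −1.79 ± 0.27 (limma, adjusted p = 0.0611), Folr2 at −1.76 ± 0.34 (0.0961), Sepp1 at −1.10 ± 0.31 (0.177), Stab1 at −1.06 ± 0.59 (0.443) and Msr1 at 0.22 ± 0.18 (0.588). When each library was instead weighted by its own spread, library 8 got the smallest weight, 0.242. Labelled KO libraries 3 and 4 got 4.38 and 3.05, and 5 and 6 only 0.335 and 0.463. The labelled KO level in this fit thus rested mostly on libraries 3 and 4, which were the lowest in Stab1 and Sepp1. Under these weights 5 of the 6 genes passed as lower in labelled KO TAM, from −1.53 ± 0.33 for Lyve1 to −2.20 ± 0.43 for Stab1 (limma, adjusted p = 0.00485 to 0.0166), where 20.8% of all tested genes passed, 1509 as higher and 546 of 9897 as lower.

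**Figure D5:**
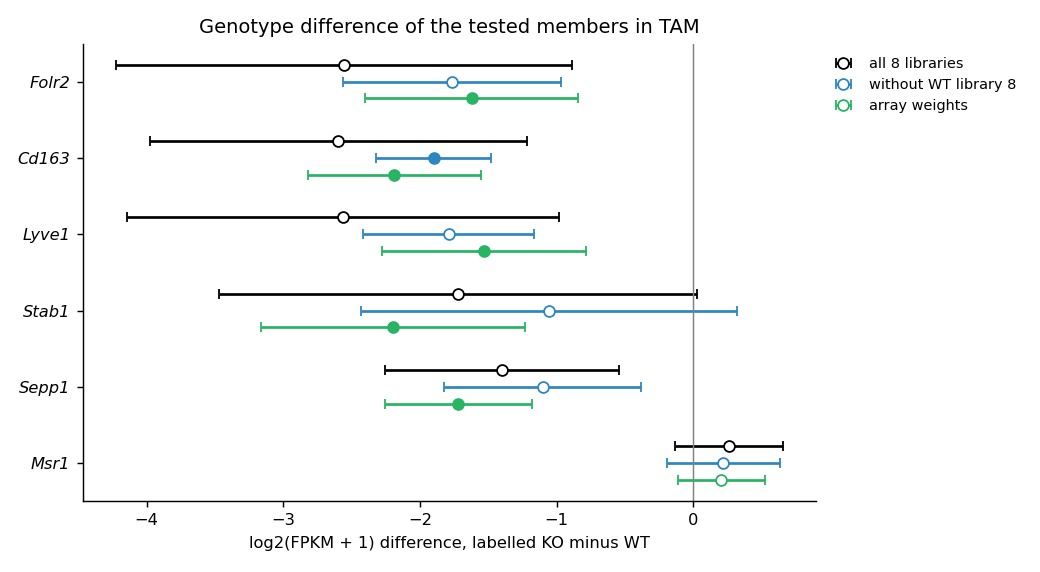
Difference between genotypes in TAM in log2(FPKM + 1), labelled KO minus WT, for the 6 tested genes with all 8 libraries (black), without WT library 8 (blue) and with weighted libraries (green), with 95% intervals from limma and filled points where the adjusted p is under 0.05. The points of Cd163, Folr2, Lyve1, Stab1 and Sepp1 lie left of 0 in all 3 fits, from −1.06 to −2.60, and the interval of Msr1 crosses 0 in each.

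Other cell types were seen in the sort. The 10 fibroblast markers were all found, with a summed level of 48.4 to 80.1 FPKM in the 4 labelled KO libraries, against 77.3 to 108 FPKM in WT libraries 1, 2 and 7 and 1160 FPKM in library 8, mostly Mgp. The 7 monocyte markers summed to 11392, 11142, 1902 and 2557 FPKM in labelled KO TAM, against 4784, 5660, 5046 and, in library 8, 977 FPKM in WT TAM, so labelled KO libraries 3 and 4, the lowest in Stab1 and Sepp1, were the highest in monocyte markers. The 7 neutrophil markers found of 8 summed to 6583, 5494, 1477 and 1092 FPKM in labelled KO libraries 3, 4, 5 and 6. In WT libraries 1, 2, 7 and 8 they summed to 7773, 17522, 1113 and 860 FPKM. Libraries 1, 2, 3 and 4 thus lay above 5, 6, 7 and 8, whatever the genotype. Endothelial markers summed to 23.2 to 56.1 FPKM in labelled KO and 13.3 to 20.7 FPKM in WT TAM, mostly Pecam1. Those tested were Pecam1, Kdr and Pdpn, which differed by 1.83 ± 0.47, 0.98 ± 0.36 and −0.36 ± 0.51 (limma, adjusted p = 0.145, 0.234 and 0.736). Cldn5 was listed at 0 in every library, and Cdh5, Tek and Prox1 were at most 0.440, 0.0257 and 0.0191 FPKM in labelled KO and 1.71, 0.0142 and 0.0223 FPKM in WT TAM. Summed macrophage markers were 3944 to 6523 FPKM in labelled KO and 6740 to 8427 FPKM in WT TAM. Lyz2, the locus into which the LysM-Cre is inserted, had 1091 to 3027 FPKM of this in labelled KO and 3611 to 5875 FPKM in WT TAM. The part of monocytes, neutrophils, fibroblasts and endothelial cells in the differences of Cd163, Folr2, Lyve1, Stab1 and Sepp1 was not tested. Lyve1 is also made by lymphatic endothelium, of which Prox1 is a defining marker, and Stab1 by sinusoidal endothelium.

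Of 25 other tested resident macrophage genes, 0 passed in TAM, 11 had an unadjusted p under 0.05 in limma, and the median difference was −0.63 against 0.09 over all tested genes. An unadjusted p under 0.05 was reached by 1676 of the 9897 tested genes. Without library 8, 0 of the 25 passed, 9 had an unadjusted p under 0.05 in limma, and the median was −0.23 against 0.10. With weighted libraries 2 of the 25 were higher and 9 lower (median −0.60 against 0.08), where 1509 of the 9897 tested genes were higher and 546 lower. The smallest p were those of the efferocytosis receptor Mertk (−0.83 ± 0.18), the oxysterol receptor Nr1h3 (1.17 ± 0.25), F13a1 (−1.96 ± 0.52) and the transcription factor Spic (1.01 ± 0.33), with limma adjusted p of 0.110 to 0.208. No gene passed among 13 other scavenger receptors, 14 folate genes and 20 selenoprotein genes either, and 2 of each list had an unadjusted p under 0.05 in limma. With weighted libraries 1 scavenger receptor was higher and 2 lower, 2 folate genes higher and 1 lower, and 3 selenoprotein genes higher and 1 lower. The mannose receptor Mrc1 was at −1.83 ± 0.65 (limma, adjusted p = 0.221) and Mthfd2 at 1.08 ± 0.22 (0.102).

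Over the 12 BMDM libraries, which share 6 groups, the log2 levels of Stab1 and Sepp1 had a Pearson r of 0.963, Cd163 and Folr2 one of 0.739, and Msr1 ran opposite to Sepp1 and Stab1 (−0.849 and −0.833). Over the 8 TAM libraries Folr2 and Lyve1 had an r of 0.990, and 0.966 without library 8. Stab1 and Sepp1 had 0.946 and 0.899, whereas Folr2 and Stab1 had 0.735 with and 0.271 without it. The tested genes most like each one in BMDM by this r were Adssl1 for Folr2 (0.962), Prune2 for Cd163 (0.959), Arhgap19 for Stab1 (0.994), Ptgr1 for Msr1 (0.971) and Mylip for Sepp1 (0.987). In TAM they were Ephx1 for Folr2 (0.991), Kremen1 for Cd163 (0.983), Folr2 for Lyve1, Slc9a9 for Stab1 (0.996), Abca9 for Sepp1 (0.991) and Vps37a for Msr1 (0.971). Without library 8, Slc9a9 and Abca9 were again first for Stab1 and Sepp1 (0.991 and 0.987), and other genes were first for the other 4.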

How the data were processed

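Transcripts were sequenced in 12 BMDM and 8 TAM libraries, and the authors deposited a table of FPKM per gene for each experiment. The submitters' processing notes name TopHat, Cuffdiff and the mouse build mm9, and versions and annotation are not given in the sources used here. Only the deposited BMDM table names its unit. For TAM, FPKM was inferred from those notes and from decimal values with unequal sums. Ribosomal RNA was depleted for BMDM and polyadenylated RNA selected for TAM, per the labels' protocols, so levels were not compared between the experiments. FPKM hold no read counts, so depth and counting intervals are unknown.

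All tests used limma 3.58.1 under R 4.3.3 on log2(FPKM + 1), with empirical Bayes and an intensity trend. The 12 BMDM libraries entered as 6 groups (residual degrees of freedom 6, prior included 10.3) and the 8 TAM libraries as 2 (6 and 8.54). Genes reaching 1 FPKM in at least 2 BMDM or 4 TAM libraries were tested, with Benjamini-Hochberg adjustment across all of them and a threshold of 0.05. The fit was tested on simulated data. Alternatives were a pseudocount of 0.1, no filter, 1 FPKM in every library, 2 scalings, a fit on the compared libraries, library weights, a replicate block and each library left out. Named were the 9 genes, up to 4 genes per list by smallest p (with the same genes given across comparisons) and those most alike by Pearson r. The genes and lists were chosen with earlier results of these data known, and the list counts without library 8, under library weights and under the 2 scalings were chosen after seeing the data. Promoter windows came from RefSeq (GRCm38.p6). Scripts ran in Python 3.11.15 with pandas 2.3.3, numpy 2.4.6 and matplotlib 3.10.9.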

Additional observations from a re-analysis of the deposited data

Results flagged for a closer look

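In the groups of 4 TAM libraries, a single library stood apart from the other 3 for 7 of 18 pairs of gene and group. Its gap to its neighbour was above Dixon's 95% critical share of the group's range, which chance gives in about 1 in 20 groups of normally distributed values. The values were FPKM without a log, and pairs from the same libraries are not independent, so 7 of 18 cannot be read against that rate. In 5 of them it was WT library 8, with 47.5 FPKM of Cd163, 181 FPKM of Folr2, 61.8 FPKM of Lyve1, 257 FPKM of Stab1 and 25.5 FPKM of Vsig4, where the gap was 0.949, 0.937, 0.970, 0.872 and 0.973 of the range. WT library 7 had 0.437 FPKM of Timd4, above the other WT libraries at 0.0982 to 0.117 FPKM. Labelled KO library 3 had 0.0346 FPKM of Marco, where the other 3 were listed at 0, so that its gap was the whole range whatever its value. The last 2 values are near the limit of detection.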

How the results depend on the processing

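Counts are of genes past the threshold. For labelled KO against WT in untreated BMDM, 1 gene passed, against 2 after median-of-ratios scaling or quantile normalization, 0 when fitted on the compared libraries and 0 to 1 with each library left out. At 10 h 2 passed, and 0 to 2 with each library left out. At 24 h 1 passed, and 0 on the compared libraries and 1 to 2 with each left out. Between 10 and 24 h 5 passed in labelled KO, with 2 to 3 with each left out, and 4 in WT, with 2 to 4, and 2 on the compared libraries. In TAM 0 passed, 5 with library weights and 0 to 1 with each library left out. No difference that passed in the deposited or the alternative fit changed direction. Direction was not read for differences that passed in neither, and some of those changed sign. In untreated BMDM, Sepp1 differed between genotypes by −0.16 to 0.14 with each library left out. For single genes 765 alternatives left the call as it was, 37 lost one and 15 gained one. A library left alone in its group was assumed to vary like the others. With the replicate block, 3 and 4 genes passed at 10 and 24 h in each genotype, and no call of the 5 genes in BMDM changed. The cause of these shifts was not tested. Deviations of same-numbered libraries correlated between −0.141 and 0.149 over 15 pairs of groups, 5 of them over 0.1, so the numbers are not shown to pair libraries. For TAM alone, libraries could not be paired by replicate number because its groups share none, and no other block was tested. Depth is unknown, and values under 1 FPKM are imprecise.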

Other observations

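The IL4 response of 2 other resident macrophage genes passed the test for a difference between genotypes at 24 h, as 31 of all tested genes did. Ednrb, an endothelin receptor, had an interaction of 1.38 ± 0.15 and the chemokine Ccl8 one of −1.22 ± 0.17 (labelled KO minus WT response, log2; limma, adjusted p = 0.00363 and 0.0203, where 0.295% of tested genes passed). Without replicate 1 of WT at 0 h 1169 genes passed, and without each other library of the comparison 11 to 142. Ednrb passed in all 15 alternatives (limma, adjusted p = 0.00147 to 0.0346). Ccl8 missed the threshold without replicate 1 of labelled KO at 0 h (limma, adjusted p = 0.0993), replicate 1 or 2 of labelled KO at 24 h (0.128 and 0.0621) or replicate 2 of WT at 0 h (0.0787), and when fitted on the compared libraries (0.108), with 0.00472 to 0.128 over the 15. These alternatives for both genes were chosen after seeing the data. Ednrb was higher in labelled KO than in WT BMDM by 0.55 ± 0.11 at 10 h and 1.29 ± 0.11 at 24 h (limma, adjusted p = 0.0223 and 2.2e-04). With IL4 for 24 h, Ednrb changed by −0.64 ± 0.11 in labelled KO and by −2.03 ± 0.11 in WT BMDM (limma, adjusted p = 7.6e-04 and 2.0e-07), and Ccl8 rose by 3.31 ± 0.12 in labelled KO and 4.53 ± 0.12 in WT BMDM (limma, adjusted p = 1.6e-08 and 1.3e-09).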
